A study of Mus musculus with 36 samples.

Results

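Arc and 6 further genes whose products set the strength of synapses, Homer1, Plk2, Plk3, Nptx1, Nptx2 and Nptxr, were followed in mouse cortical neurons stimulated with brain-derived neurotrophic factor (BDNF) or depolarized with KCl. The 7 genes were taken by symbol from a list that was made with earlier results of these data known. All 7 were found among the 26709 genes of the RNA-seq table. All 7 also had a mean of at least 10 normalised reads over the samples, as did 16209 genes in all, and entered the tests.

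Neurons came from the cortices of CD-1 mouse embryos at embryonic day 15, pooled over embryos, and were used after 7 days in culture. Their activity was blocked for 2 h by AP-5 (100 µM), an NMDA receptor antagonist, and tetrodotoxin (TTX, 1 µM), a blocker of voltage-gated sodium channels, before they were exposed to 10 ng/ml BDNF or to 55 mM KCl for 1, 6 or 10 h. The controls were left in both blockers, with no stimulus, for 3, 8 or 12 h in all, so a period of silencing is common to every group. RNA-seq and ATAC-seq, which measures accessible chromatin, were each run on 2 samples for every stimulus and time, which gives 9 groups and 18 samples per assay. The 6 controls were pooled as 1 reference level. A and B below are the letters of the RNA columns and, for ATAC-seq, the order of a group's columns. A letter is not taken to link libraries across groups or assays.

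A neuron that is driven too strongly or too weakly for hours scales its excitatory synapses down or up, mainly by changing how many AMPA-type glutamate receptors they hold. Arc carries AMPA receptors into the cell by endocytosis, the short form of Homer1 uncouples the Homer scaffold that ties metabotropic glutamate receptors to their partners, and the Polo-like kinases Plk2 and Plk3 are stress- and activity-induced kinases, of which Plk2 marks spine proteins for removal. The neuronal pentraxins Nptx1 and Nptx2 are secreted proteins that gather AMPA receptors at synapses, and Nptxr is the membrane-bound member that holds the pentraxin complexes at the surface.

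The cultures held the transcripts their label calls for: the summed normalised reads of 5 neuronal markers ranged from 39659 to 50967 over the 18 RNA libraries. They were mixed cultures, since 4 astrocyte markers summed to 7024 to 12628, 4 oligodendrocyte lineage markers to 4175 to 7138 and the dividing-cell markers Mki67 and Top2a to 2287 to 5730, while 4 microglial markers summed to at most 172 and 2 endothelial markers to at most 28.1. The sum of 4 excitatory cortical neuron markers spread wider with stimulation, in both directions. It ran from 4184 to 4772 in the controls, 3336 to 5281 with BDNF and 3830 to 5576 with KCl. The sum of the inhibitory neuron markers Gad1, Gad2 and Slc32a1 moved with stimulation, from 4593 to 5971 in the controls to 6913 to 8756 with BDNF and 6093 to 9808 with KCl. The part of either sum in the results below was not tested. In such bulk samples fewer cells of a type and less RNA per cell cannot be told apart. RNA libraries held 8.51 to 36.7 M reads, and ATAC libraries 1.24 to 6.24 M reads in peaks, the lowest being KCl 6 h B. The RNA libraries of KCl 6 h differed from each other further beyond counting noise than those of any other group.

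RefSeq's promoter table (GRCm38.p6, the assembly behind mm10) held 4 windows for 3 of the 7 genes, 2 for Homer1 and 1 each for Plk2 and Plk3. The 250 bases before the start site are shown for the 3 windows that held a CRE core. That name stands here for TGACG or its complement CGTCA, the ends of the cAMP response element (CRE, TGACGTCA) bound by CREB-family factors. Homer1, Plk2 and Plk3 each rose with both stimuli at every time, as did Arc and Nptxr, which have no window. The 7 genes can thus not be compared by their cores, and a part of the cores in the rise was not tested. Capitals mark the CRE core or, in Plk2, the whole CRE, TGACGTCA. The Homer1 window is at chr13:93303507-93303756 on the plus strand, the Plk2 window at chr13:110394794-110395043 on the plus strand, and the Plk3 window at chr4:117133964-117134213 on the minus strand, each read 5′ to 3′ along its gene.
Homer1 upstream: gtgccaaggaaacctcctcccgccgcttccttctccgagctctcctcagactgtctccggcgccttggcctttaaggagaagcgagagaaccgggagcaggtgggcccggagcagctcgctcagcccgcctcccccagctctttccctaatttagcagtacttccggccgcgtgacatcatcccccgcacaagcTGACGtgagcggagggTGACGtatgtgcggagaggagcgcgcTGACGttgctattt
Plk2 upstream: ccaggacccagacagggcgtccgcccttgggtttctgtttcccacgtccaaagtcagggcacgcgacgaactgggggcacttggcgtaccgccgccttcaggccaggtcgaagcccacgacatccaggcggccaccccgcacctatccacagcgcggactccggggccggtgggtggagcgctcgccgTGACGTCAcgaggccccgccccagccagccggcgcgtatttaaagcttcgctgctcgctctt
Plk3 upstream: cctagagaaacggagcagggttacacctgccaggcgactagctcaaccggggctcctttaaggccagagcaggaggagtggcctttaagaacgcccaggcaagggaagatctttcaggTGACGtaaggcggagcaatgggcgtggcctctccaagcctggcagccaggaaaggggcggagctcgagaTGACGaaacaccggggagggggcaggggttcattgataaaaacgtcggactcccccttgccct

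The Homer1 bases held the CRE core at 3 places, which began 56, 40 and 14 bases before the start site. Plk2 held the whole CRE 62 bases before its start, with the core on both of its strands, and another core 21 bases after the start, outside the stretch shown. Plk3 held the core at 132 and 63 bases before its start. Over all 32851 windows of 300 bases, 20.8% held at least 1 core on either strand, 5.01% at least 2 and 1.03% at least 3, and 1.79% held the whole CRE. These windows are rich in G and C (63.0% for Homer1, 66.3% for Plk2 and 62.7% for Plk3), and among the 9690 windows with at least 60% G and C the shares with at least 1, 2 and 3 cores were 31.6%, 9.30% and 2.27%. The other Homer1 window and these 3 held no AP-1 site (TGACTCA or TGAGTCA, in 5.20% of all windows), no EGR site (GCGTGGGCG or GCGGGGGCG and their complements, in 3.47%) and no CArG box (1.63%). The core was added to the search after the windows had been read, and a match is letters in a window, not a site shown to be bound.

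Arc rose with both stimuli at every time, and the BDNF levels were far above the KCl levels. Arc (ENSMUSG00000022602) lies at chr15:74669083-74672570 on the minus strand, with 3.06 kb of exon sequence. In the 6 controls its lowest, median and highest levels were 25.1, 34.2 and 39.4 normalised reads (33.2 ± 6.09, SD, n = 6). After 1 h of BDNF the libraries read 6244 and 6474, after 6 h 920 and 957, and after 10 h 621 and 596. After 1 h of KCl they read 182 and 141, after 6 h 118 and 89.1, and after 10 h 73.3 and 65.3. The 6 stimulated groups fell in the order BDNF 1 h, 6 h, 10 h, KCl 1 h, 6 h, 10 h, and no group overlapped its neighbour or the controls. The mean at BDNF 1 h was 192-fold that of the controls, against 4.87-fold at KCl 1 h, and at 10 h the ratios were 18.3 and 2.09. On the log2(value + 1) scale, which understates the change of low genes, the rise at BDNF 1 h was 7.56 (SE 0.15, adjusted p = 1.49e-19) and that at KCl 10 h, the smallest of the 6, was 1.06 (SE 0.15, adjusted p = 7.15e-06).

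**Figure D1:**
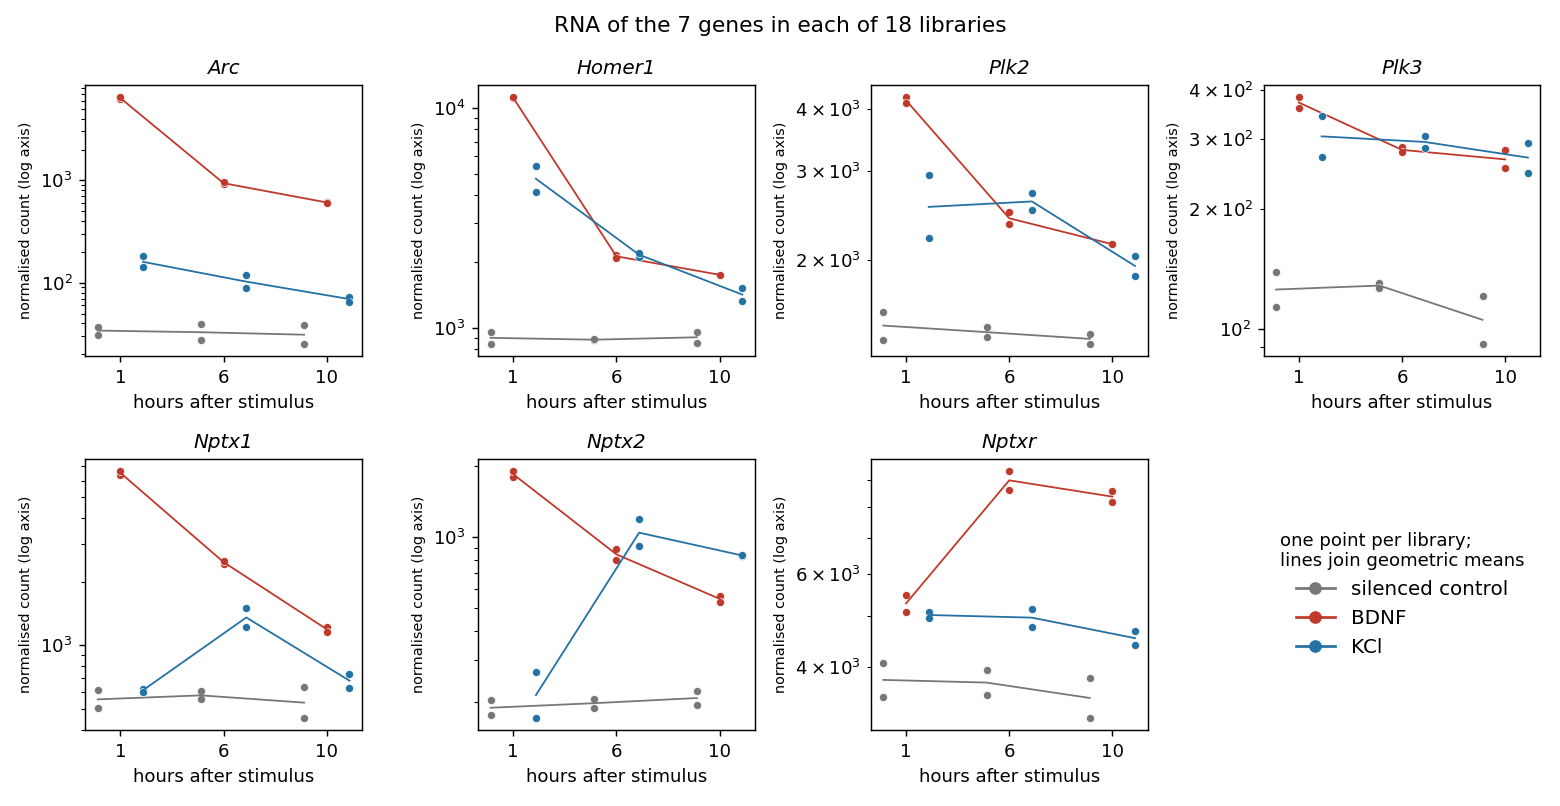
Normalised reads of each of the 7 genes in all 18 RNA libraries (log axis) against hours of treatment, with 1, 6 and 10 h equally spaced, for BDNF, KCl and control. Each point is 1 library and each line joins the geometric means of the 2 libraries of a group. BDNF is above KCl for Arc at every time (arithmetic means of 608 against 69.3 normalised reads at 10 h), Nptx2 is highest at 1 h with BDNF and at 6 h with KCl, and Nptxr is highest at 6 h with BDNF.

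Homer1 also rose in all 6 stimulated groups, and at 6 h, unlike for Arc, the levels under BDNF and KCl overlapped. Homer1 (ENSMUSG00000007617, chr13:93299635-93405129, plus strand) had 843, 883 and 962 normalised reads as the lowest, median and highest of the controls. At 1 h BDNF took it to 11003 and 11135, at 6 h to 2152 and 2073 and at 10 h to 1742 and 1741. KCl took it to 5433 and 4155, to 2106 and 2191 and to 1323 and 1515 at the same times. Every stimulated library was above every control, and the 2 stimuli were apart at 1 h and 10 h. The rise over the controls was 3.62 (SE 0.08) at BDNF 1 h and 2.40 (SE 0.08) at KCl 1 h on the log2 scale. The table counts the gene as a whole, so the short, activity-induced form and the long scaffold form of Homer1 cannot be separated.

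The kinases moved over a narrower range. Plk2 (ENSMUSG00000021701, chr13:110395046-110400844, plus strand) had 1355, 1411 and 1574 normalised reads as the lowest, median and highest of the controls. It stood at 4218 and 4101, 2486 and 2352, and 2148 and 2145 at 1, 6 and 10 h of BDNF. It stood at 2946 and 2204, 2718 and 2511, and 1858 and 2029 at the same times of KCl. All 12 stimulated libraries lay above the highest control, and BDNF 1 h, 2.90-fold over the control mean, lay above all other groups. Plk3 (ENSMUSG00000028680, chr4:117128655-117133963, minus strand) was a less abundant transcript, at 91.3, 124 and 139 normalised reads as the lowest, median and highest control. It rose to 360 and 383 at BDNF 1 h and to 343 and 272 at KCl 1 h. It then stayed between 247 and 307 in the 8 libraries of the later times, so that from 6 h on neighbouring groups overlapped whatever the stimulus. The smallest rise of Plk3 over the controls was 1.16 (SE 0.13, adjusted p = 5.62e-07), at BDNF 10 h. Plk3 shares 84 bases of exon with the antisense gene Tctex1d4, and the sources used here do not say whether reads were counted by strand.

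The secreted pentraxins separated the stimuli in time. Nptx1 (ENSMUSG00000025582, chr11:119538719-119547753, minus strand) had 454, 581 and 633 normalised reads as the lowest, median and highest control. BDNF raised it to 6396 and 6655 at 1 h, then 2427 and 2515 at 6 h and 1225 and 1157 at 10 h. With KCl it read 625 and 603 at 1 h, within the control range, 1500 and 1221 at 6 h and 631 and 735 at 10 h. The rise at BDNF 1 h was 11.6-fold over the control mean, while the value at KCl 1 h differed by 0.14 on the log2 scale (95% interval -0.08 to 0.36, adjusted p = 0.287). At KCl 6 h the rise was 1.28 (SE 0.10, adjusted p = 2.55e-09). The call at KCl 10 h, 0.29 (SE 0.10, adjusted p = 0.0265), rested on 1 library: without KCl 10 h B it was 0.18 (adjusted p = 0.328), and library A overlapped the controls.

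Nptx2 (ENSMUSG00000059991, chr5:144545902-144557478, plus strand) had 176, 198 and 223 normalised reads as the lowest, median and highest control. The BDNF libraries read 1785 and 1900 (1 h), 798 and 890 (6 h) and 562 and 531 (10 h), and the KCl libraries 267 and 171 (1 h), 1185 and 916 (6 h) and 827 and 840 (10 h). It was thus highest at the first time under BDNF and only at the later times under KCl. Against the controls the log2 changes were 3.21 (SE 0.13) at BDNF 1 h and 2.39 (SE 0.13) at KCl 6 h. At KCl 1 h the difference was 0.11 (95% interval -0.15 to 0.37, adjusted p = 0.497), and the libraries disagreed: without KCl 1 h A it was -0.21 (adjusted p = 0.206), and without KCl 1 h B it was 0.43 and past the threshold (adjusted p = 0.00977).

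Nptxr (ENSMUSG00000022421, chr15:79786351-79804766, minus strand) had a course of its own, with its highest level at the later times of BDNF. The controls ran from 3204 through a median of 3677 to 4076 normalised reads. At 1, 6 and 10 h BDNF gave 5073 and 5475, 8646 and 9374, and 8576 and 8198. KCl gave 5074 and 4951, 5153 and 4764, and 4675 and 4391. The 2 stimuli overlapped at 1 h, and at 6 and 10 h both BDNF libraries stood far above all KCl libraries. The log2 change over the controls grew from 0.52 (SE 0.07) at BDNF 1 h to 1.30 (SE 0.07) at BDNF 6 h, and with KCl it was 0.45, 0.43 and 0.31 (SE 0.07 each) at 1, 6 and 10 h. Nptxr shares 890 bases of exon with the same-strand gene Npcd, which has no row in the RNA table, so reads of that stretch could belong to either gene.

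Counted together against the controls (limma, Benjamini-Hochberg adjusted p below 0.1 over all 16209 genes), 7 of the 7 genes were higher at 1, 6 and 10 h of BDNF, 5 at 1 h of KCl (all but Nptx1 and Nptx2) and 7 at 6 and 10 h of KCl, and none was lower. Of all genes tested, 21.3% were higher and 19.0% lower at BDNF 1 h, 22.1% and 21.1% at BDNF 6 h, 21.1% and 19.5% at BDNF 10 h, 26.5% and 28.2% at KCl 1 h, 33.4% and 33.1% at KCl 6 h, and 29.0% and 28.2% at KCl 10 h. Because the 7 genes were chosen with earlier results of these data known, the contrast of their counts with these shares is a description, not a test. The median log2 change of the 7 genes was 3.21, 1.30 and 1.16 at 1, 6 and 10 h of BDNF and 0.83, 1.28 and 0.66 at the same times of KCl, beside a median over all genes tested that stayed within 0.01 of 0. Among the controls themselves none of the 7 differed between 6 h and 1 h or between 10 h and 1 h. There the share of all genes called was 0% in limma in both comparisons, and edgeR and DESeq2 also called none of the 7. In limma 164 and 181 genes, and none of the 7, had an unadjusted p under 0.05. Both counts lie far below a share of 0.05 of the 16209 genes, so limma may have been too strict among the controls. A missed call there does not show equal levels.

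Per kilobase of exon, which puts genes of different length on one scale, the highest mean level in the controls was that of Nptxr (712 ± 62.2 normalised reads per kb, n = 6), followed by Plk2 (319 ± 17.5), Nptx1 (108 ± 13.5), Nptx2 (78.2 ± 6.43), Homer1 (75.0 ± 4.24), Plk3 (47.5 ± 6.58) and Arc (10.8 ± 1.99). The spreads of Nptx2 and Homer1 overlapped. At BDNF 1 h Arc led with 2080 ± 53.4 normalised reads per kb (n = 2), followed by Nptx1 with 1251 ± 35.1. At KCl 1 h Arc, at 52.8 ± 9.34 (n = 2), was still the lowest of the 7. Homer1's exon sequence, 11.976 kb merged over its transcripts, lowers its level per kb where the short form is the one made.

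The direct tests of BDNF against KCl at matched times called 5 of the 7 genes at 1 h, 3 at 6 h and 5 at 10 h, beside 42.8%, 57.3% and 45.0% of all genes. Arc was higher with BDNF at each time, by 5.30 (SE 0.19), 3.18 (SE 0.19) and 3.12 (SE 0.19) on the log2 scale at 1, 6 and 10 h. Nptx1 was likewise higher with BDNF throughout, by 3.41, 0.87 and 0.81 (SE 0.13 each). Both genes thus differed between the stimuli up to the last time.

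Homer1 and Plk2 differed between the stimuli mainly at 1 h, when BDNF was higher by 1.22 (SE 0.10) and 0.71 (SE 0.10). At 6 h the differences were -0.02 for Homer1 (95% interval -0.23 to 0.18) and -0.11 for Plk2 (95% interval -0.32 to 0.09), and neither was called. At 10 h Homer1 was higher with BDNF by 0.30 (SE 0.10, adjusted p = 0.0199), a call that was lost without KCl 10 h A (0.20, adjusted p = 0.206), and Plk2 differed by 0.14 (95% interval -0.06 to 0.35, adjusted p = 0.268).

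Plk3 was called at none of the 3 times. Its differences were 0.28 at 1 h (95% interval -0.04 to 0.61, adjusted p = 0.175), -0.07 at 6 h (-0.39 to 0.26) and -0.01 at 10 h (-0.34 to 0.31). These intervals leave room for a difference of up to 0.61 on the log2 scale, and without KCl 1 h A the 1 h difference was 0.45 and past the threshold (adjusted p = 0.0736).

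Nptx2 changed sides. It was higher with BDNF by 3.10 (SE 0.15) at 1 h, differed by -0.30 at 6 h (95% interval -0.63 to 0.02, adjusted p = 0.105) and was higher with KCl at 10 h (-0.61, SE 0.15, adjusted p = 0.00382). At 6 h the difference was past the threshold with edgeR (-0.32, adjusted p = 0.0442) and DESeq2 (-0.32, adjusted p = 0.0465). For Nptxr the stimuli parted late: they differed by 0.07 at 1 h (95% interval -0.11 to 0.26, adjusted p = 0.570) and BDNF was higher by 0.86 (SE 0.09) at 6 h and 0.89 (SE 0.09) at 10 h.

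**Figure D2:**
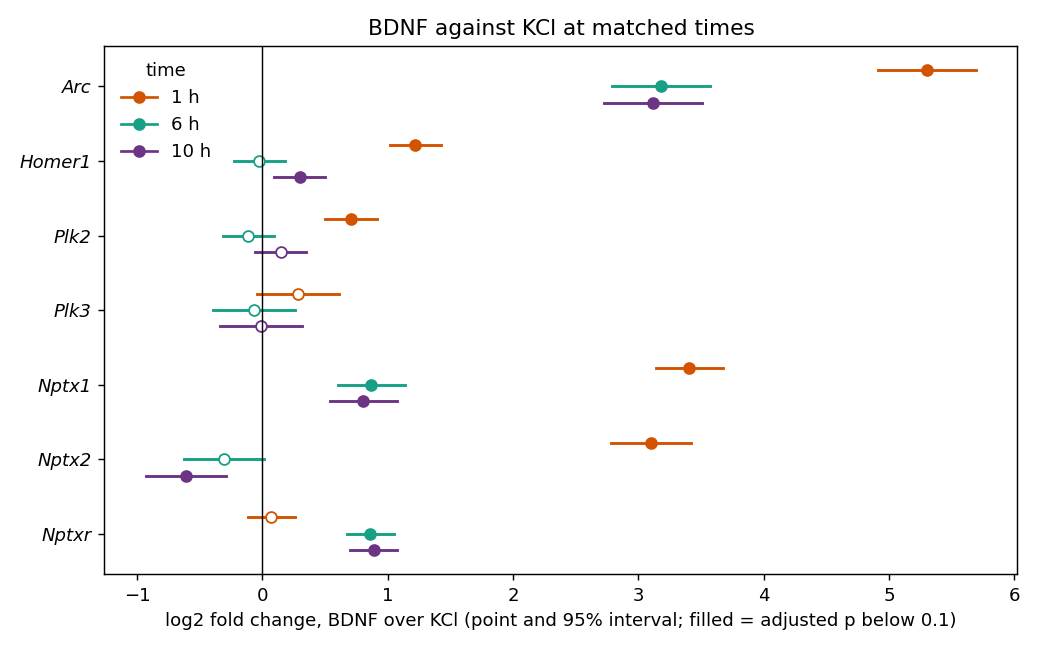
Log2 difference between BDNF and KCl at 1, 6 and 10 h for each of the 7 genes, on the log2(value + 1) scale, with 95% intervals from the limma fit over all genes; values above 0 are higher with BDNF. Arc and Nptx1 stay above 0 at all 3 times, Nptxr leaves 0 only at 6 and 10 h (0.86 and 0.89), and Nptx2 goes from 3.10 at 1 h to -0.61 at 10 h.

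The tests between times, in which no control takes part, gave the course under each stimulus. From 1 h to 6 h of BDNF all 7 genes were called, beside 33.6% of all genes: 6 were lower, from Arc (-2.76, SE 0.19) and Homer1 (-2.39, SE 0.10) to Plk3 (-0.40, SE 0.16, adjusted p = 0.0683, a call lost when either library of either group was left out), and Nptxr was higher by 0.77 (SE 0.09). From 6 h to 10 h of BDNF only Nptx1 was called (-1.05, SE 0.13, adjusted p = 0.00131), where 0.216% of all genes were, and the call was lost without BDNF 10 h B (-1.01, adjusted p = 0.107). On recovered reads edgeR and DESeq2 called 3 genes there: Nptx1, Arc (-0.63) and Nptx2 (-0.63). The share of 0.216% is that of limma and does not apply to these 3 calls.

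Under KCl, 4 genes were called from 1 h to 6 h beside 59.6% of all genes: Nptx2 (2.28, SE 0.15) and Nptx1 (1.14, SE 0.13) were higher, and Homer1 (-1.14, SE 0.10) and Arc (-0.64, SE 0.19) lower. Plk2, Plk3 and Nptxr differed by 0.04, -0.05 and -0.02 (SE 0.10, 0.16 and 0.09), and the sign of each turned when 1 library was left out. Without KCl 1 h A, Plk2 was higher at 6 h by 0.25 and past the threshold (adjusted p = 0.0377). From 6 h to 10 h of KCl, 4 genes were lower, beside 22.5% of all genes called in either direction: Nptx1 (-0.99), Homer1 (-0.60), Arc (-0.56) and Plk2 (-0.43). Arc's calls under KCl were sensitive to single libraries: the fall from 1 h to 6 h was -0.46 (adjusted p = 0.102) without KCl 1 h A and -0.44 (adjusted p = 0.104) without KCl 6 h B, and that from 6 h to 10 h was -0.36 (adjusted p = 0.240) without KCl 6 h A, -0.64 (adjusted p = 0.131) without KCl 10 h A and -0.48 (adjusted p = 0.186) without KCl 10 h B. Plk2's fall was -0.36 and no longer called without KCl 10 h A.

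The change from 1 h to 10 h differed between BDNF and KCl for 6 of the 7 genes in the test of stimulus by time, beside 42.2% of all genes. Nptx2 differed most, by -3.71 (SE 0.22), since it fell under BDNF and rose under KCl. Nptx1 (-2.60, SE 0.18) changed by -2.45 under BDNF and by 0.15 under KCl. Arc (-2.19, SE 0.27), Homer1 (-0.92, SE 0.14) and Plk2 (-0.56, SE 0.14) dropped under both stimuli and more under BDNF, and Nptxr (0.82, SE 0.13) moved the other way. Plk3 was the gene not called (-0.30, 95% interval -0.76 to 0.17, adjusted p = 0.324).

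Of 33 genes that act with the members, listed by role, 32 passed the minimum; Tnf did not. Against the controls, 9 were called at BDNF 1 h (6 higher, 3 lower), 15 at BDNF 6 h (7 and 8), 16 at BDNF 10 h (9 and 7), 20 at KCl 1 h (14 and 6), 21 at KCl 6 h (7 and 14) and 18 at KCl 10 h (7 and 11), shares to be read beside the background of all genes above. Their changes were mostly small next to those of the members, with a median log2 change between -0.14 and 0.15 in the 6 comparisons. In 2 of the 32 the change reached 1 on the log2 scale in a called comparison.

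One was Rara, the retinoic acid receptor alpha, which takes part in synaptic scaling through dendritic translation. Its controls ran from 131 to 158 normalised reads, and at BDNF 1 h it read 328 and 348, a rise of 1.22 (SE 0.10, adjusted p = 4.31e-09) with no overlap. At later BDNF times the rise was 0.66 and 0.40, and with KCl it was 0.47, 0.50 and 0.21, the last of these called at an adjusted p of 0.0918 and lost under 6 other settings and without any 1 of 9 libraries.

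By role, of the 7 genes of the Homer family and its partners, 2 were higher and 4 lower at 6 h of each stimulus. Of all genes, 22.1% were higher and 21.1% lower at BDNF 6 h, and 33.4% and 33.1% at KCl 6 h. These shares too were the largest of the 3 times under each stimulus. Homer2, a constitutive scaffold form, was higher with BDNF (0.56, 0.60 and 0.39 at 1, 6 and 10 h) and lower at 6 and 10 h of KCl (-0.74 and -0.62), whereas Homer3 was lower at 6 and 10 h of BDNF (-0.29 and -0.30) and higher at 6 and 10 h of KCl (0.79 and 0.77). Among the 4 AMPA receptor subunits, 2 were lower at BDNF 1 h (Gria3 by -0.20 and Gria2 by -0.14), 2 were higher and 1 lower at BDNF 6 h (Gria3 by 0.26, Gria1 by 0.22 and Gria4 by -0.40), and 3 were higher at BDNF 10 h (Gria3 by 0.63, Gria1 by 0.43 and Gria2 by 0.18). With KCl, 2 were higher at 1 h (Gria1 by 0.43 and Gria4 by 0.26), and Gria1 and Gria3 were lower at 6 h (by -0.74 and -0.71) and 10 h (by -0.59 and -0.42). Of the 4 endocytic partners of Arc, Ap2m1, a subunit of the clathrin adaptor, was higher in all 6 comparisons (0.16 to 0.36). Between the stimuli at 6 h the log2 difference, BDNF less KCl, was 1.34 for Homer2 (SE 0.09, adjusted p = 2.07e-10), -1.08 for Homer3 (SE 0.13, adjusted p = 5.80e-07), 0.95 for Gria1 (SE 0.11, adjusted p = 5.41e-07) and 0.97 for Gria3 (SE 0.10, adjusted p = 9.25e-08). Adam17, the protease that cuts Nptxr, was called in none of the 6 comparisons. Genes in this paragraph were chosen by their values, and its counts are to be read beside the shares of all genes given above.

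**Figure D3:**
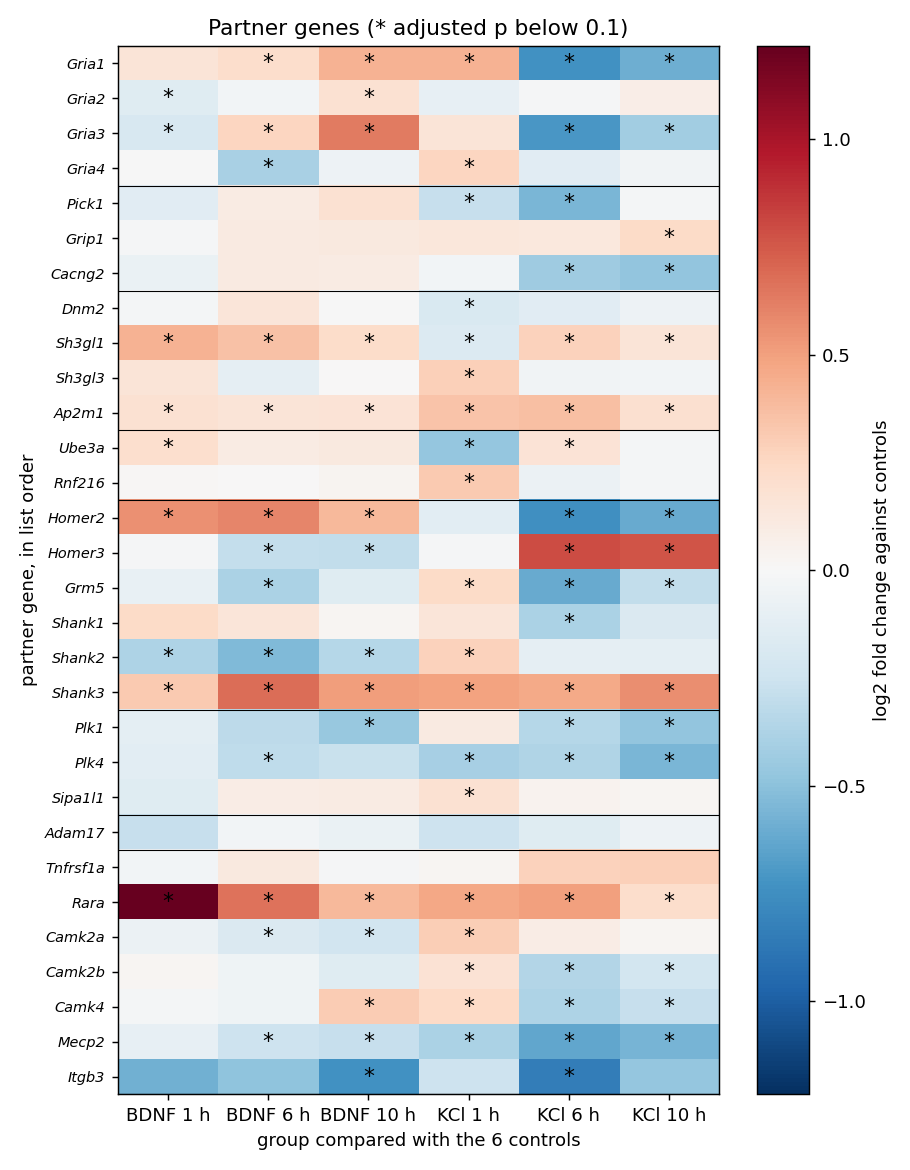
Log2 change against the controls of partner genes (rows, grouped by role) in the 6 stimulated groups (columns), on the log2(value + 1) scale, with the called changes marked. Rara at BDNF 1 h (1.22) is the largest change shown.

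The courses most like those of the members over the 18 RNA libraries, by Pearson's r of log2(value + 1), were as follows; these libraries share groups and controls, and r is a description. The 3 closest genes to Arc were Vegfa (0.979), Egr2 (0.972) and ENSMUSG00000082209 (0.964), and those to Homer1 were Csrnp1 (0.977), Srf (0.963) and Rybp (0.960). Plk2 was closest to Btbd10 (0.971), Sertad1 (0.970) and Egr4 (0.967), and Plk3 to Spry2 (0.974) and Mir132 (0.969). For the pentraxins they were Rprml (0.961), Noct (0.954) and Hrh1 (0.950) for Nptx1, Slc6a8 (0.970), Ankrd33b (0.963) and F8a (0.959) for Nptx2, and Nrip3 (0.966), Gal (0.964) and Cyp26b1 (0.960) for Nptxr. No gene stands in 2 of these lists. Among the members the highest r was that of Homer1 with Plk2 (0.943) and the lowest that of Homer1 with Nptxr (0.357).

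The ATAC-seq table is named as normalised but holds whole numbers whose totals differ between libraries, so it was taken as raw counts and LOESS-scaled; if it was already scaled, the scaled reads below were scaled again. Of its peaks, 23 of 58177 had their midpoint within 50 kb of the annotated start of a member, and 22 of them passed the minimum of 10 reads on average. Arc had 5, Homer1 1, Plk2 3, Plk3 6, Nptx1 1, Nptx2 4 and Nptxr 3. Their calls were few: 4 were called at BDNF 1 h, 1 each at BDNF 6 h and 10 h, 2 at KCl 1 h and 1 each at KCl 6 h and 10 h (edgeR quasi-likelihood test, adjusted p below 0.1), beside 16.4%, 9.40%, 8.27%, 7.97%, 6.74% and 7.08% of all 56383 peaks tested. In each comparison the number called is thus near the share of all peaks. The median log2 change of the 22 peaks at BDNF 1 h was 0.08, beside -0.04 over all peaks. The calls at 1 h and 6 h were gains of accessibility and those at 10 h were losses.

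The largest gain of the 22 peaks lay 2.72 kb upstream of Nptx2, outside the gene body, at chr5:144543044-144543324. Its sequence on the plus strand is shown because it carries the largest chromatin change near a member. Capitals mark an AP-1 site at base 270, close to the peak's end.
Nptx2 upstream peak: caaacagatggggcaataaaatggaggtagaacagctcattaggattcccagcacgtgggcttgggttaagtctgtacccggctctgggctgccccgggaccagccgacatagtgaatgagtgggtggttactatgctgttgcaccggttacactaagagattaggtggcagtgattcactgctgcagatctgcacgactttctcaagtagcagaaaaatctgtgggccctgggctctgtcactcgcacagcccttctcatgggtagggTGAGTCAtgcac

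An AP-1 site is found in 10.9% of windows of 281 bases centred on the 58177 peaks, and the sequence held none of the other motifs searched (CRE core in 15.7% of windows, whole CRE in 0.928%, EGR site in 2.05%, CArG box in 1.33%). The peak had few reads in the controls, 2.71 to 13.3 after LOESS scaling (7.69 ± 4.42, n = 6), and 58.6 and 39.1 at BDNF 1 h. It stood at 15.0 and 23.3 at BDNF 6 h, 18.9 and 7.82 at BDNF 10 h, and between 7.38 and 15.3 in the 6 KCl libraries. Both BDNF 1 h libraries lay above every other library. The log2 gain was 2.62 at BDNF 1 h (SE 0.40, adjusted p = 4.18e-08) and 1.30 at BDNF 6 h (SE 0.44, adjusted p = 0.0488), the latter lost without BDNF 1 h A or B or BDNF 6 h B (0.83 to 1.14, adjusted p = 0.134 to 0.618). Against KCl 1 h the BDNF 1 h gain was 2.07 (SE 0.50, adjusted p = 0.00208), and it was lost without BDNF 1 h A (1.57, adjusted p = 0.136) or KCl 1 h B (1.71, adjusted p = 0.126). The promoter peak of Nptx2, chr5:144545641-144546452, was called in none of the 6 comparisons (control range 78.2 to 120, BDNF 1 h 106 and 101), although Nptx2 RNA was 9.29-fold over the controls at BDNF 1 h.

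Arc had a called gain at its promoter and at a peak 6.65 kb upstream. The upstream peak, chr15:74678947-74679500, held 30.3 to 45.5 scaled reads in the controls, 102 and 81.7 at BDNF 1 h and 49.3 and 63.8 at KCl 1 h. Both stimuli lay above the controls at 1 h without overlap, and BDNF lay above KCl. The gain was 1.22 at BDNF 1 h (SE 0.23, adjusted p = 9.86e-06). At KCl 1 h and 6 h the differences were 0.54 (SE 0.24, adjusted p = 0.180) and 0.69 (SE 0.26, adjusted p = 0.124), and neither was called. The difference of BDNF and KCl at 1 h missed the threshold (0.68, SE 0.27, adjusted p = 0.102), so the stimuli were not shown to differ at this peak. The guides that the study designed to delete a putative Arc enhancer each match chromosome 15 once, inside this peak. They lie at chr15:74679096-74679115 on the plus strand and chr15:74679163-74679182 on the minus strand, 6.54 and 6.60 kb upstream of the start. Other chromosomes were not searched for matches. The study's 8 primers for the enhancer also lie in this peak. The lines with the deletion are not analysed here.

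Over the Arc start, the peak chr15:74672355-74672871 held 62.1 to 116 scaled reads in the controls, 121 and 132 at BDNF 1 h and 76.2 and 79.2 at KCl 1 h. It gained 0.62 at BDNF 1 h (SE 0.18, adjusted p = 0.00801), and BDNF exceeded KCl there by 0.70 (SE 0.22, adjusted p = 0.0253). Both calls were fragile: the first was lost without BDNF 1 h B (0.56, adjusted p = 0.180) or with the 1 h controls alone (0.52, adjusted p = 0.131), and the other was lost without BDNF 1 h B (0.64, adjusted p = 0.185), KCl 1 h A (0.67, adjusted p = 0.115) or KCl 1 h B (0.73, adjusted p = 0.158). The other promoter peak of Arc, chr15:74673441-74673615, was not called, with 9.33 to 27.6 scaled reads in the controls and 26.0 and 29.4 at BDNF 1 h.

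**Figure D4:**
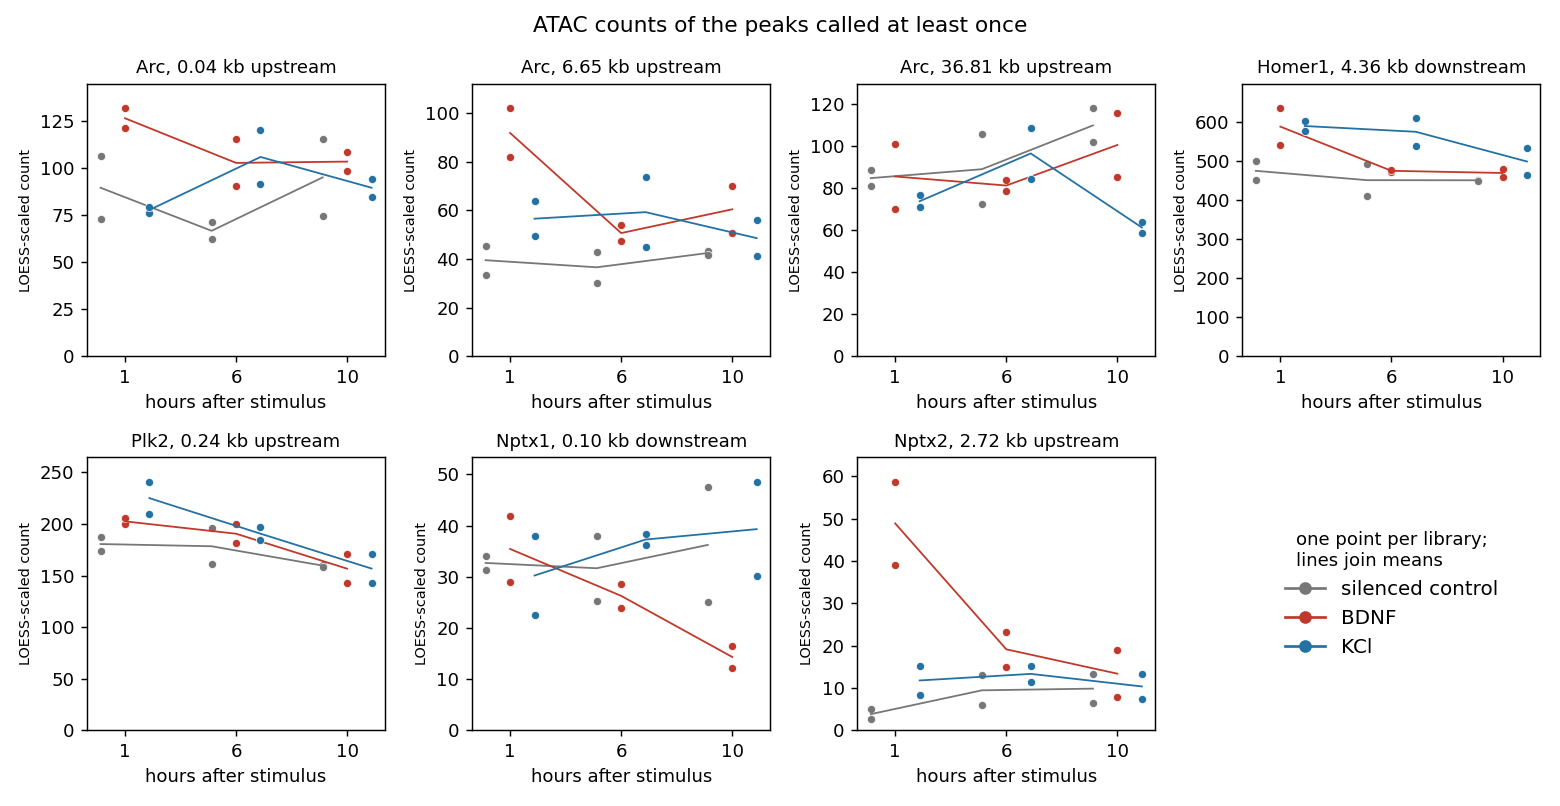
LOESS-scaled ATAC-seq reads in each of the 18 libraries (points) at the 7 peaks near members that were called at least once, against hours of treatment, with 1, 6 and 10 h equally spaced; lines join the group means of BDNF, KCl and control, and the vertical axes start at 0. The peak upstream of Nptx2 stands out at BDNF 1 h (58.6 and 39.1 scaled reads against at most 13.3 in the controls), and the Nptx1 promoter is lowest at BDNF 10 h (16.4 and 12.2).

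Homer1 had 1 peak, chr13:93303343-93304646, which covers the RefSeq promoter window printed above and lies in an exon 4.36 kb inside the longer GENCODE gene. It held 411 to 500 scaled reads in the controls, 635 and 542 at BDNF 1 h, 578 and 602 at KCl 1 h and 540 and 610 at KCl 6 h. The 3 groups lay above all controls, with gains of 0.35 (SE 0.09, adjusted p = 0.00121), 0.36 (adjusted p = 0.00460) and 0.31 (adjusted p = 0.0382). BDNF and KCl differed by -0.01 (SE 0.11) at 1 h, where Homer1 RNA was 2.31-fold higher with BDNF. The KCl gains depended on the scaling, since TMM gave 0.12 (adjusted p = 0.459) at 1 h and 0.06 (adjusted p = 0.816) at 6 h, and 1 library decided each call: the BDNF gain was lost without BDNF 1 h A (0.24, adjusted p = 0.259), the KCl 1 h gain without KCl 1 h B (0.33, adjusted p = 0.147) and the KCl 6 h gain without KCl 6 h A (0.41, adjusted p = 0.111) or B (0.23, adjusted p = 0.356).

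The promoter peak of Plk2, chr13:110394163-110395445, gained at KCl 1 h, with 209.5 and 240 scaled reads against 159 to 196 in the controls (0.38, SE 0.12, adjusted p = 0.0460), a call lost with TMM (0.29, adjusted p = 0.147) or without either KCl 1 h library. The promoter peak of Nptx1, chr11:119547398-119547899, was the only promoter peak of a member called lower: at BDNF 10 h it held 16.4 and 12.2 scaled reads against 25.0 to 47.5 in the controls (-1.23, SE 0.41, adjusted p = 0.0487) and 48.5 and 30.1 at KCl 10 h (-1.47, SE 0.46, adjusted p = 0.0935). Nptx1 RNA was at that time still 2.12-fold over the controls. Without either BDNF 10 h library neither call held (adjusted p against the controls = 0.166 without A and 0.379 without B), and the raw counts were 10 in both. One more peak near Arc was lower at KCl 10 h, at the start of Jrk (-36.8 kb from the Arc start; -0.62, SE 0.21, adjusted p = 0.0705), and that call was lost without Control 6 h B, Control 10 h B or either KCl 10 h library (adjusted p = 0.110 to 0.389).

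No peak near Plk3 or Nptxr was called, the lowest adjusted p being 0.176 (37.9 kb from the Plk3 start, KCl 6 h, -0.71) and 0.180 (30.3 kb from the Nptxr start, BDNF 6 h, -0.32). Their promoter peaks, chr4:117133479-117134395 and chr15:79804043-79805001, held 110 to 142 and 51.6 to 80.0 scaled reads in the controls. With stimulation the ranges were 117 to 167 and 44.7 to 74.5, and of these groups only BDNF 10 h at the Plk3 promoter (149 and 167) lay wholly outside the controls (0.31, SE 0.16, adjusted p = 0.290). The direct tests called 2 of the 22 peaks at 1 h (the Arc promoter and the peak upstream of Nptx2), 0 at 6 h and 1 at 10 h (the Nptx1 promoter), beside 14.1%, 3.38% and 1.88% of all peaks.

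**Figure D5:**
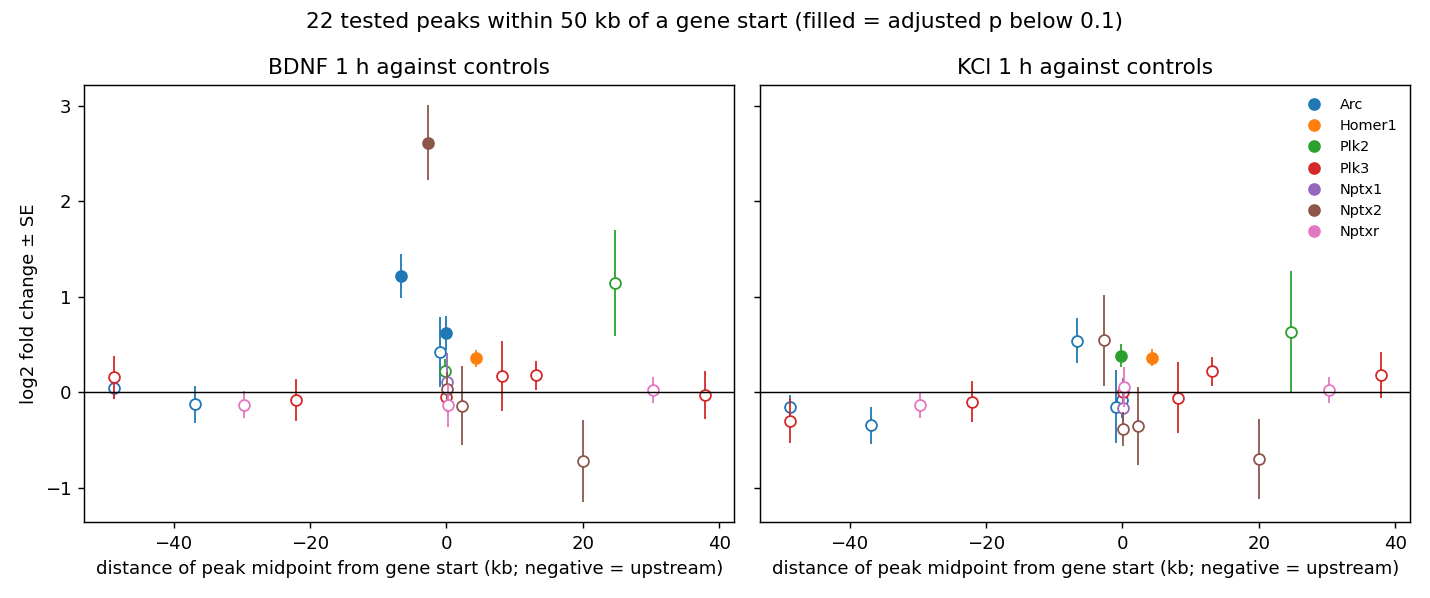
Log2 change in accessibility at BDNF 1 h and KCl 1 h against the controls for the 22 tested peaks within 50 kb of a member's start, against the signed distance in kb along the gene's direction, with called peaks filled and bars of 1 SE. The largest change is the gain of 2.62 at 2.72 kb upstream of Nptx2 with BDNF.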

How the data were processed

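Stimulated and silenced mouse cortical neurons were profiled by poly(A) RNA-seq and ATAC-seq. For the RNA table the authors mapped reads with TopHat2 to mm10 with GENCODE annotation and deposited a normalised signal, reads per gene divided by DESeq2 size factors; no source used here names the program that counted the reads. For the ATAC table the authors mapped with Bowtie2, called peaks with MACS2 in each sample, kept those found in at least 2 samples and deposited DiffBind counts; the table is named as normalised, but its values are whole and its totals differ, so it was taken as raw. Tables of the authors' fold changes and p-values were used for gene names alone.

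Dividing each RNA column by the value of 1 read gave whole reads for 100% of values (within 0.01), which set the depths and fed edgeR 4.0.16 and DESeq2 1.42.0 as alternatives. RNA was tested with limma 3.58.1 (R 4.3.3, trend and robust) on log2(value + 1) for the genes with a mean of at least 10, in a model of 7 levels with the 6 controls pooled; comparisons among controls used 9 levels. ATAC counts with a mean of at least 10 were tested with edgeR's quasi-likelihood test with LOESS offsets. Tests were two-sided, called at a Benjamini-Hochberg adjusted p below 0.1 over all features, and the scripts were tested on simulated data, where the share of false calls was near the threshold for limma and edgeR and above it for DESeq2. Replicates are separate samples by their labels, and the study calls them biological replicates. Neither says whether a pair came from separate cultures. The p-values thus measure the spread between samples, which may be smaller than that between separate cultures. No columns were identical, and each pair differed by more than counting noise. The RNA pair of KCl 6 h differed most, with a chi-square against counting noise of 36.4 per degree of freedom. The next highest RNA pair, Control 1 h, had 9.77.

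The members, the partner genes and the marker genes were chosen with earlier results of these data known. By the rule for names, every member is given with each library's value, partners if called with an absolute log2 change of at least 1, for each member the 3 genes of highest r, its promoter peaks (1000 bp before to 100 bp after the start) and its peak of lowest adjusted p within 50 kb; other names were chosen by their values, and some genes the rule names are not reported here. Alternatives were the pseudocount (5), no minimum, the other tools and scalings, controls of the same time, a threshold of 0.01, a window of 20 kb, a replicate block and leaving out each library. Motifs were searched on both strands, and a whole CRE contains the CRE core on each strand. Members with no entry in the promoter table have no upstream bases shown.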

Additional observations from a re-analysis of the deposited data

Results flagged for a closer look

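For 6 of the 7 genes the change from 1 h to 10 h differed between BDNF and KCl in the test of stimulus by time (limma, adjusted p below 0.1 over all genes). The difference, the BDNF change less the KCl change on the log2(value + 1) scale, was -2.19 for Arc (-3.38 with BDNF, -1.20 with KCl, adjusted p = 1.84e-06). It was -0.92 for Homer1 (-2.67 and -1.75, adjusted p = 2.49e-05) and -0.56 for Plk2 (-0.95 and -0.39, adjusted p = 0.00347). Among the pentraxins Nptx1 differed by -2.60 (-2.45 and 0.15, adjusted p = 2.75e-09), Nptx2 by -3.71 (-1.75 and 1.96, adjusted p = 2.80e-10) and Nptxr by 0.82 (0.67 and -0.15, adjusted p = 4.01e-05). All 6 calls held under each alternative that was run.

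At 2 of the 22 peaks 1 of the 6 controls stood apart from the other controls. At chr13:110419742-110419896, 24.8 kb from the Plk2 start, the gap from the highest control to the next was 0.778 of the controls' range. At chr15:74720787-74721697, at the start of Them6 and -48.7 kb from the Arc start, the gap from the lowest control to the next was 0.707 of the range. Both shares pass Dixon's 95% critical value for 6 samples, and chance passes it in about 1 of 20 groups; the 7 genes and 22 peaks were all looked at. Neither peak was called in any comparison with the controls.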

How the results depend on the processing

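For the members, 2440 of the alternative values kept their direction and their side of the threshold, 18 lost the call, 23 gained one and 11 changed sign, all 11 at differences that were not called. For the partner genes whose change reached 1, 245 held and 15 lost the call, and for the peaks 257 held and 52 lost it. The scalings moved the median over all features by no more than 0.1 on the log2 scale. Where no cause is given, the cause was not tested. Several of the peaks described above hold few reads per library, and a missed threshold there does not show equal accessibility.

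The letters of the RNA columns stand in no label of the samples. Over the 36 pairs of groups, same-letter libraries deviated together with r from -0.31 to 0.42 (median 0.06), and 13 pairs were over 0.1. Control 10 h had a negative r with every other group (-0.31 with Control 1 h and -0.28 with Control 6 h). Pairs among the groups other than Control 10 h and BDNF 1 h were all positive. Whether samples were paired, with the letters swapped in some group, was not tested, and the letters were not taken to pair samples. The block below uses the letters as they stand. With the letter as a replicate block, the members called were 7, 7 and 7 at 1, 6 and 10 h of BDNF and 5, 7 and 7 at those of KCl, and 1 call was gained, Nptx2 between BDNF and KCl at 6 h (-0.30, adjusted p = 0.0840, limma). No paired analysis was possible for ATAC-seq because its columns carry no replicate mark.

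The shares of all features given above belong to the main settings and do not apply to the counts in this paragraph and the next. From 6 h to 10 h of BDNF, 3 members were called with edgeR and with DESeq2. At an adjusted p below 0.01 the partner genes called were 4, 8 and 9 at 1, 6 and 10 h of BDNF and 10 at KCl 1 h, and with controls of the same time they were 5 at BDNF 1 h. For the peaks, a threshold of 0.01 left 0 at 6 and 10 h of BDNF, 1, 0 and 0 at 1, 6 and 10 h of KCl, and 1 and 0 in the direct tests at 1 and 10 h. With no minimum 2 peaks were called at BDNF 6 h, and within 20 kb 0 at KCl 10 h. TMM gave 3 and 2 at 6 and 10 h of BDNF and 0, 2 and 3 at the KCl times, and DESeq2 size factors gave 3, 2, 0, 2 and 4. The DESeq2 test gave 3, 2 and 0 at BDNF 6 h, BDNF 10 h and KCl 1 h, 4 at KCl 10 h and 0 in the direct test at 10 h. With controls of the same time, 0 were called at BDNF 10 h, KCl 1 h and KCl 6 h.

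Leaving out each library in turn gave 0 to 2 members from 6 h to 10 h of BDNF and 2 to 5 from 6 h to 10 h of KCl. It gave 4 to 11, 9 to 17 and 8 to 20 partner genes at 1, 6 and 10 h of BDNF. For the peaks it gave 0 to 2 and 0 to 1 at 6 and 10 h of BDNF, 0 to 2, 0 to 2 and 0 to 1 at the KCl times, and 0 to 3, 0 to 1 and 0 to 1 in the direct tests. The signs that turned were those of Homer1 between the stimuli at 6 h (-0.053 to 0.0043), Plk3 between them at 10 h (-0.14 to 0.11), Nptx2 at KCl 1 h (-0.21 to 0.43), and, from 1 h to 6 h of KCl, Plk2 (-0.17 to 0.25), Plk3 (-0.22 to 0.12) and Nptxr (-0.073 to 0.040). The direct call at the Nptx1 promoter at 10 h was lost with any 1 of 8 libraries left out (adjusted p = 0.104 to 0.426, edgeR) and with DESeq2 (adjusted p = 0.103). Nptx2 gained calls from 6 h to 10 h of KCl with edgeR (-0.34, adjusted p = 0.0891), DESeq2 (adjusted p = 0.0878) and without either KCl 1 h library or KCl 6 h B.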
